A study of Mus musculus with 15 samples.

Results

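Acsm1, Acsm2, Acsm3 and Acsm5 are medium-chain acyl-CoA synthetases with RNA counted in these mouse livers, 4 of the 55573 genes of the table. They were found by gene symbol, and the family was chosen on these same libraries because Acsm2 RNA separated ESR1KO females from ESR1KO males but did not separate WT females from WT males. All 4 members passed the filter on low counts, which kept 17655 genes. Since the choice used the Acsm2 values, differences of Acsm2 between groups are given as a description with no test. Acsm1, Acsm3 and Acsm5 were tested in each comparison.

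RNA-seq was carried out on the livers of 15 mice of the strain B6N(Cg)-Esr1tm4.2Ksk/J, all 8 weeks old, with 1 library per mouse. FWT were 3 WT females, MWT were 3 WT males, FKO were 5 ESR1KO females and MKO were 4 ESR1KO males. ESR1KO mice were homozygous for a deletion in Esr1, which encodes estrogen receptor alpha, and the WT mice carried the intact gene. The deletion is present throughout the body, so loss of the receptor in the liver cannot be told apart from its loss in other organs or from changed hormone levels. Comparing the sexes within each genotype asks whether a sex difference in expression is present with and without the receptor, and comparing the genotypes within each sex asks in which sex expression differs.

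Members of the ACSM family are enzymes of the mitochondrial matrix that join medium-chain fatty acids and small aromatic acids such as benzoate to coenzyme A. The resulting acyl-CoA can enter beta-oxidation or be conjugated to glycine, the route by which the liver and kidney make hippurate for excretion in urine. Acsm1 and Acsm5 encode ligases of medium-chain acids, Acsm3 encodes a ligase also known by its older name SA, and Acsm2 encodes a ligase best known for its high expression in the proximal tubule of the kidney.

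Libraries held between 27799061 and 78624766 counts in genes, and levels are given as CPM, the count of a gene scaled to the size of its library with TMM factors. Esr1 RNA was between 74.7 and 88.2 CPM in FWT and between 25.04 and 51.99 CPM in MWT, against 9.67 to 19.7 CPM in FKO and 8.22 to 16.1 CPM in MKO, so no ESR1KO library reached the lowest WT library. The 6 hepatocyte markers examined summed to between 74435 and 107750 CPM in each mouse. In a bulk sample of this kind, fewer cells of a type and less RNA per cell cannot be told apart.

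All 4 genes lie on the + strand of chromosome 7 in GRCm38, in the order Acsm5 (ENSMUSG00000030972, 119519463 to 119545551), Acsm2 (ENSMUSG00000030945, 119554340 to 119600690), Acsm1 (ENSMUSG00000033533, 119607026 to 119662515) and Acsm3 (ENSMUSG00000030935, 119760923 to 119787513). No stretch of 75 bases in the transcripts of any member was shared with another Acsm gene, so reads of that length could be told apart between members. The exons of Acsm3 share 1962 bases with Eri2 on the opposite strand, and those of Acsm5 share 104 bases with Pdilt on the opposite strand. The strand setting of the counting is not given in the sources used here, so reads in these shared bases cannot be told apart from those of the partner gene.

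The promoters of Acsm2 and Acsm3 are printed because these were the members with the clearest differences between groups. Each is the 250 bases before the transcription start in RefSeq on GRCm38.p6, + strand, written 5′ to 3′, at chr7:119554090-119554339 for Acsm2 and chr7:119760673-119760922 for Acsm3. Capitals mark a match to TATAAA, the letters of a TATA box, which begins 28 bases before the start of Acsm2.
Acsm2 promoter: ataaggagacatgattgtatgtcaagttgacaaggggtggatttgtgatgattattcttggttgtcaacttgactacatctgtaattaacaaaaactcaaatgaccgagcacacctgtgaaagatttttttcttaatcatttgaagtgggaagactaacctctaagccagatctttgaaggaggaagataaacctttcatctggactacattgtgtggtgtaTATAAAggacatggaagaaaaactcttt
Acsm3 promoter: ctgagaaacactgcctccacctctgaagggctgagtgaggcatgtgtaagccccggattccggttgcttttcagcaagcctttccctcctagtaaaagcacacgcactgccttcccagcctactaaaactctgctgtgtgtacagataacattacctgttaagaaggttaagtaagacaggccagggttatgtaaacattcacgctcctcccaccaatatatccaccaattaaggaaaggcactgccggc
Both strands of the Acsm promoters were searched for TATAAA, for TTCNNNGAA, which STAT5 binds, for AGGTCA, a core sequence bound by estrogen receptors and other nuclear receptors, and for AGAACA, a core sequence bound by the androgen receptor. Of 32817 promoters of this length in RefSeq, 12.37% held TATAAA, 7.015% held TTCNNNGAA, 14.03% held AGGTCA and 16.08% held AGAACA. Besides the match in Acsm2, the promoter of Acsm1 held 1 AGGTCA on the opposite strand, 107 bases before the start. The promoters of Acsm3 and Acsm5 and a second promoter of Acsm2 held no match, which says only that these letters were not in these windows.

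Acsm2 RNA was low in every liver and lowest in MKO, the pattern on which the family was chosen. It was 2.08, 3.07 and 3.92 CPM in the 3 FWT mice and 4.001, 3.28 and 4.44 CPM in the 3 MWT mice. The 5 FKO mice had 3.82, 2.01, 2.32, 3.04 and 5.13 CPM. The 4 MKO mice had 0.470, 1.17, 0.453 and 1.49 CPM. Every MKO mouse was thus below every mouse of the other groups, whose values overlapped with one another. Ordered by mean, MWT had 3.91 ± 0.588 (SD, n = 3) and FKO 3.26 ± 1.26 CPM (n = 5). FWT had 3.02 ± 0.919 (n = 3) and MKO 0.895 ± 0.517 CPM (n = 4). The choice required that Acsm2 not separate FWT from MWT, so no likeness of groups is read from their overlap.

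The values of Acsm2 rest on few counts, from 13 in the shallowest MKO library to 340 in an FKO library. The exact Poisson 95% interval, which covers counting error only, was 0.250 to 0.803 CPM for MKO mouse 1 and 0.296 to 0.663 CPM for MKO mouse 3. It was 0.866 to 1.54 CPM for MKO mouse 2 and 1.23 to 1.79 CPM for MKO mouse 4. MKO mice 1 and 3 were therefore below MKO mice 2 and 4 by more than counting error. The lowest FKO mouse had an interval of 1.58 to 2.53 CPM, which overlaps that of MKO mouse 4.

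As a log2 fold change, Acsm2 was 1.82 ± 0.348 (SE) higher in FKO than in MKO, which is 3.54-fold, whereas the difference between FWT and MWT was -0.38 ± 0.382. In males, Acsm2 was 4.20-fold lower in MKO than in MWT (log2 fold change -2.07 ± 0.378), and in females FKO and FWT differed by 0.13 ± 0.344. The genotype difference of females minus that of males was 2.20 ± 0.516. Leaving out 1 mouse at a time moved the FKO to MKO difference between 1.58, without MKO mouse 3, and 2.23, without MKO mouse 4, and the MKO to MWT difference between -1.83 and -2.48, without the same mice. Over the same fits the FWT to MWT difference lay between -0.61 and -0.16, and the FKO to FWT difference, between -0.10 and 0.36, changed sign. The choice used these Acsm2 values, so the ranges describe them and lend the differences no support.

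Averaged over the sexes, the genotype effect of Acsm2 was -0.97 ± 0.253 on the log2 scale, which combines the difference in males with that in females. It is likewise a description with no test, since the MKO values that led to the choice enter it. Leaving out 1 mouse at a time moved it between -1.17, without MKO mouse 4, and -0.85, without MKO mouse 3.

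**Figure D1:**
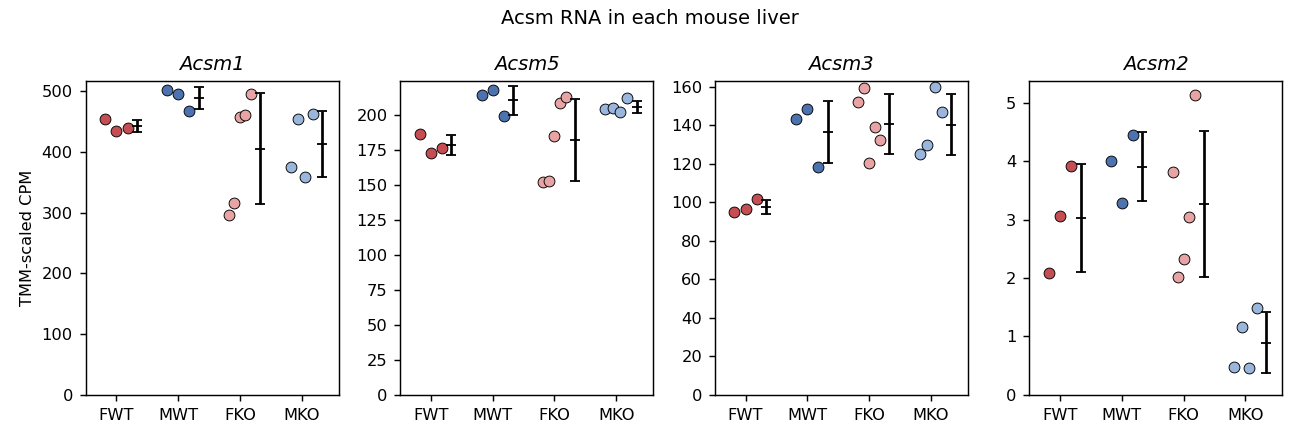
TMM-scaled CPM of each member (vertical axes, linear from 0) in each mouse (points) of the 4 groups, with the mean and SD beside the points. All 4 MKO mice sit below the other 11 for Acsm2, at most 1.49 CPM against at least 2.01 CPM, and all 3 FWT mice sit below the other 12 for Acsm3, at most 102 CPM against at least 118 CPM.

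Marker lists were set beside Acsm2 for the kidney and for cells of the liver. Of the 7 markers of the kidney proximal tubule, Kap was at 0 in every library, and Slc34a1, Slc22a6, Slc5a12, Slc22a12 and Slc5a2 had at most 3 counts in any library. The list summed to 0.435 to 2.05 CPM in FWT, 3.14 to 5.43 in MWT, 0.905 to 2.40 in FKO and 2.47 to 3.397 in MKO, nearly all of it Lrp2. The sum was therefore not lowest in MKO. The 4 Kupffer cell markers summed to 306 to 383 CPM in FKO and 233 to 303 CPM in MKO, with no overlap. They summed to 309 to 375 in FWT and 292 to 309 in MWT. How often such sums separate between groups this small was not counted, so nothing is read from the separation. Vsig4, a macrophage receptor of complement, was the only 1 of the 4 Kupffer markers to pass between FKO and MKO (log2 fold change 0.61, adjusted p = 0.0210 by edgeR). In that comparison 0.272% of all genes passed, and Vsig4 is named after its value was seen. The part of these cells in the Acsm2 values was not tested.

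Acsm3 RNA was lower in FWT than in any other group, and it was the only tested member to pass between the WT sexes or between the genotypes within a sex. It was 94.9, 96.4 and 102 CPM in the 3 FWT mice and 144, 148 and 118 CPM in the 3 MWT mice. The FKO mice had 152, 159, 121, 139 and 133 CPM, and the MKO mice had 125, 130, 160 and 147 CPM. All FWT mice were below all mice of the other 3 groups, and those 3 groups overlapped. The means were 97.7 ± 3.72 in FWT (SD, n = 3), 137 ± 16.1 in MWT (n = 3), 141 ± 15.5 in FKO (n = 5) and 140 ± 15.97 CPM in MKO (n = 4).

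Between the WT sexes Acsm3 was 1.40-fold lower in FWT (log2 fold change -0.48 ± 0.129, adjusted p = 0.0378, edgeR). It was the single one of 3 members tested to pass in this comparison, in which 4.87% of all genes tested passed. Between FKO and MKO no difference was found (0.00 ± 0.105, adjusted p = 0.989). None of the 3 members tested passed there by edgeR, beside 0.272% of all genes by edgeR. None passed by DESeq2 or had an unadjusted p under 0.05.

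Within females Acsm3 was 1.44-fold higher in FKO than in FWT (log2 fold change 0.53 ± 0.117, adjusted p = 0.0146, edgeR), again as 1 of 3 members tested, beside 5.71% of all genes. Within males the difference of MKO from MWT was 0.04 ± 0.120 (adjusted p = 0.943, edgeR). By edgeR 0 of 3 members passed, beside 1.42% of all genes. None passed by DESeq2 or had an unadjusted p under 0.05 by either. The genotype difference of females minus that of males was 0.49 ± 0.166, which did not pass over all genes (adjusted p = 0.192, unadjusted p = 0.00950, edgeR). So a differing genotype effect in the sexes was not shown for Acsm3, and 0 of 3 members passed this test by edgeR, beside 1.94% of all genes. None passed by DESeq2, and 1 had an unadjusted p under 0.05 by either. The averaged genotype effect of Acsm3 was 0.28 ± 0.0836 (adjusted p = 0.0669, edgeR). For the averaged effect 0 of 3 members passed by edgeR, beside 4.13% of all genes. At an unadjusted p under 0.05 there was 1, and 1 passed by DESeq2. The shares of all genes are by edgeR at an adjusted p under 0.05, and none was computed for DESeq2 or unadjusted p.

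The same 3 FWT mice serve in both comparisons that passed, and leaving out 1 mouse ended each call in some fits. The FKO to FWT call held in 12 of 15 fits that left out 1 mouse and was lost without FWT 1 (adjusted p = 0.0733), FWT 2 (0.0697) or FWT 3 (0.0511). The call between the WT sexes held in 9 of 15 and was lost without FWT 1 (0.124), FWT 2 (0.123), FWT 3 (0.0894), MWT 1 (0.144), MWT 2 (0.156) or MKO 4 (0.0525). It was also lost with total counts in place of TMM (adjusted p = 0.0516) and with the replicate number as a block on mice 1 to 3 (adjusted p = 0.0960). The direction of both differences was kept in all of these fits.

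Other values moved beside Acsm3. The 4 cholangiocyte markers summed to 31.6 to 31.9 CPM in FWT, 32.5 to 52.9 in MWT, 42.3 to 50.2 in FKO and 39.9 to 57.2 in MKO, also lowest in FWT. Nearly all of this sum was Spp1, at 28.5 to 53.8 CPM over all mice, against at most 1.75 CPM for Krt19, Krt7 or Epcam. The 6 hepatocyte markers went the other way between the WT sexes, with 100960 to 107750 CPM in FWT and 74435 to 76224 CPM in MWT. Most of the hepatocyte sum was Alb, at 53545 to 91604 CPM over all mice. Among single markers, Alb (log2 fold change 0.66) and Epcam (1.08) were higher in FWT than in MWT. Alb was the only 1 of the 6 hepatocyte markers to pass there, beside 4.87% of all genes. Lrp2 was lower in FWT than in MWT (-1.94), as Acsm3 was, and Spp1 was higher in FKO than in FWT (0.60). Krt19 (1.23) and Epcam (0.95) were higher in MKO than in MWT, where Acsm3 differed by 0.04. These markers all passed the edgeR threshold and are named after their values were seen. Eri2, an exonuclease gene that shares exon bases with Acsm3, differed by -0.24 ± 0.196 between the WT sexes and by 0.15 ± 0.176 between FKO and FWT, and its group means were between 5.96 and 7.07 CPM. The part of these cells and of Eri2 reads in the Acsm3 values was not tested.

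**Figure D2:**
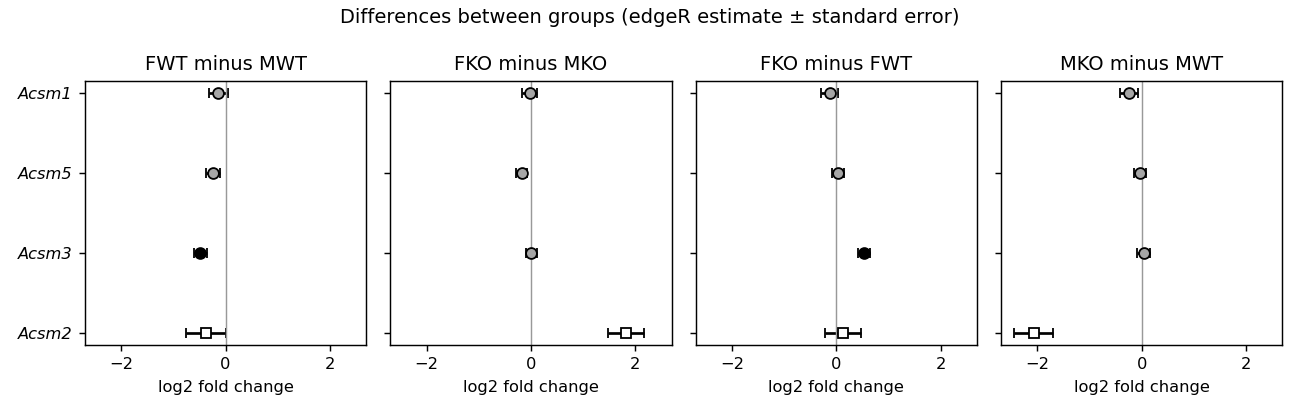
Log2 fold change (horizontal axes) with its standard error for each member in the 4 comparisons of 2 groups. Black points passed at an adjusted p under 0.05, grey points did not, and open squares are Acsm2 values, which were not tested; Acsm3 passed in FWT minus MWT (-0.48) and FKO minus FWT (0.53), and Acsm2 stands farthest from 0 in FKO minus MKO (1.82) and MKO minus MWT (-2.07).

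Acsm1 had the highest level of the family and passed no test. It was 453, 435 and 440 CPM in the FWT mice and 502, 494 and 468 CPM in the MWT mice. The FKO mice had 296, 316, 457, 461 and 495 CPM, and the MKO mice had 375, 455, 358 and 463 CPM. The FWT mice were all below the MWT mice, and the MKO mice were all below the MWT mice, while the other pairs of groups overlapped. How often genes separate in this way between groups this small was not counted, so nothing is read from it for any member. The log2 fold changes were -0.14 ± 0.178 for FWT against MWT (adjusted p = 0.746) and -0.24 ± 0.166 for MKO against MWT (adjusted p = 0.635). They were -0.03 for FKO against MKO, -0.13 for FKO against FWT and -0.18 for the averaged genotype effect, with adjusted p of 0.940, 0.670 and 0.406.

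Acsm5 also passed no test. It was 186, 173 and 176 CPM in the FWT mice and 215, 218 and 199 CPM in the MWT mice, with no overlap between them (log2 fold change -0.24 ± 0.129, adjusted p = 0.370, edgeR). The FKO mice had 152, 153, 185, 209 and 213 CPM, and the MKO mice had 204, 205, 202 and 212 CPM. FKO mice were thus found on both sides of the MKO range, and the difference of FKO from MKO was -0.17 ± 0.106 (adjusted p = 0.396). In females and males, the genotype differences were 0.03 and -0.03, with adjusted p of 0.906 and 0.952.

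Acsm1 and Acsm5 varied more among the FKO mice than in the other groups. This was not particular to them. Among the genes of the lists described below, Acads, Acadvl and Slc27a4 also had their largest SD in FKO, whereas Acot3 and Eci2 had theirs in FWT. How often genes vary most in FKO was not counted, so nothing about the family is read from this spread. The coefficient of variation of Acsm1 was 22.7% in FKO, 13.0% in MKO, 3.67% in MWT and 2.14% in FWT, and that of Acsm5 was 16.1% in FKO against 2.06% to 4.87% elsewhere. FKO mice 1 and 2 had the lowest Acsm1 and the lowest Acsm5 of all 15 mice, and at the same time the highest Acsm3 of the FKO mice. Across the 15 mice, log2 CPM of Acsm1 and Acsm5 had a Pearson r of 0.75, and of 0.89 once each group was centred on its mean. For Acsm1 and Acsm3 these values were -0.36 and -0.49, and for Acsm1 and Acsm2 they were 0.36 and 0.43. The correlations are descriptions over mice that share libraries and scaling, and were not tested. They were not compared with those of other pairs of genes, so nothing particular to the family is read from them.

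**Figure D3:**
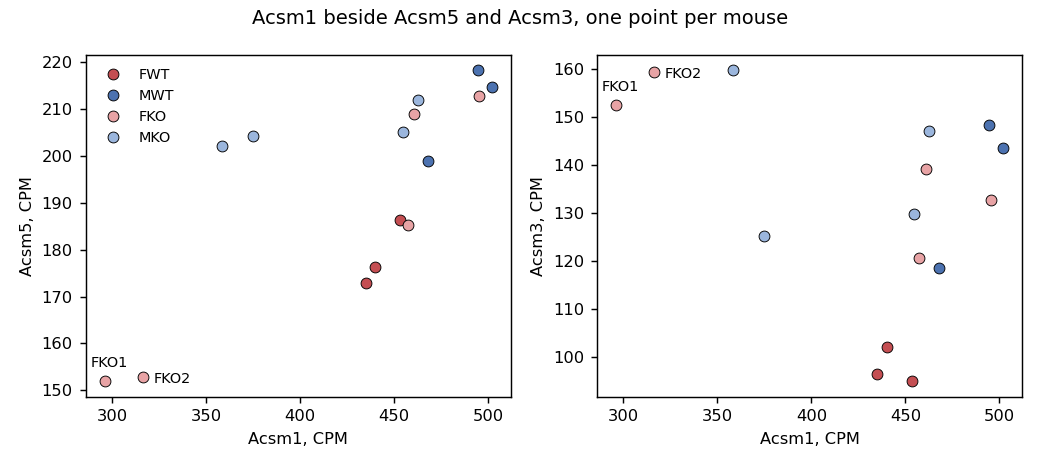
CPM of Acsm5 (left) and Acsm3 (right) against CPM of Acsm1, with 1 point per mouse coloured by group. FKO mice 1 and 2 are labelled, at 296 and 316 CPM of Acsm1, where both also have the lowest Acsm5, 152 and 153 CPM. The axes do not start at 0.

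Levels can be compared between the genes only per length. Divided by the length of all exons, the mean over the 15 mice was 198 CPM per kb for Acsm1, 50.9 for Acsm5, 26.6 for Acsm3 and 0.365 for Acsm2, so Acsm1 was 541 times the level of Acsm2. The order was the same when the longest coding transcript was used as the length, with 207, 64.9, 39.9 and 1.29 CPM per kb, but Acsm1 was then 160 times the level of Acsm2. Acsm4, the remaining family member in the region, had 1 count over all libraries.

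**Figure D4:**
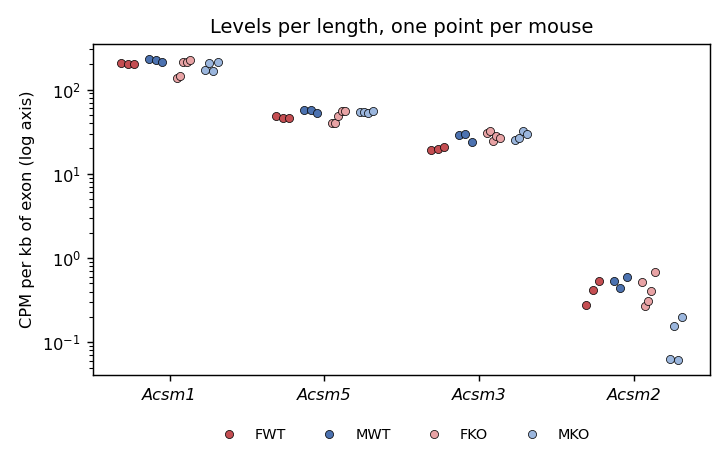
CPM per kb of exon (vertical axis, log scale) of each member, with 1 point per mouse coloured by group. The members occupy separate ranges in the order Acsm1, Acsm5, Acsm3 and Acsm2, with means over the 15 mice of 198, 50.9, 26.6 and 0.365.

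The genes within 250 kb of the outermost members were described next. Of the 22 other genes listed there, 10 were tested. Gm45792, an antisense RNA gene inside Acsm1 that shares no exon bases with it, had the largest difference between the WT sexes among these 10. It was 0.0860, 0.415 and 0.229 CPM in the FWT mice and 6.47, 6.62 and 7.04 CPM in the MWT mice. The FKO mice had 6.78, 4.27, 2.48, 1.80 and 3.09 CPM, and the MKO mice had 1.19, 5.13, 0.383 and 1.38 CPM. It was lower in FWT than in MWT (log2 fold change -4.84 ± 0.799, adjusted p = 0.00107, edgeR) and higher in FKO than in FWT (3.97 ± 0.767, adjusted p = 0.00577), while MKO against MWT was -1.74 ± 0.572 (adjusted p = 0.176).

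Pdilt, a testis protein disulfide isomerase gene next to Acsm5, was also lower in FWT than in MWT (-0.81, adjusted p = 0.0170, edgeR) and higher in FKO than in FWT (0.64, adjusted p = 0.0380). Its mean was 8.68 ± 1.21 CPM in FWT, 15.3 ± 2.94 in MWT, 13.6 ± 1.69 in FKO and 10.7 ± 2.65 in MKO (SD). No other of the 10 genes passed in these comparisons by edgeR, while DESeq2 passed 3 of the 10 in FWT against MWT and 4 in FKO against FWT. The shares of all genes by edgeR were 4.87% and 5.71%. None passed between FKO and MKO by edgeR or DESeq2, with 2 at an unadjusted p under 0.05, beside 0.272% of all genes that passed by edgeR. Umod and Gp2, genes of the region that are highly expressed in kidney and pancreas, had 16 and 1 counts over all libraries and were not tested.

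**Figure D5:**
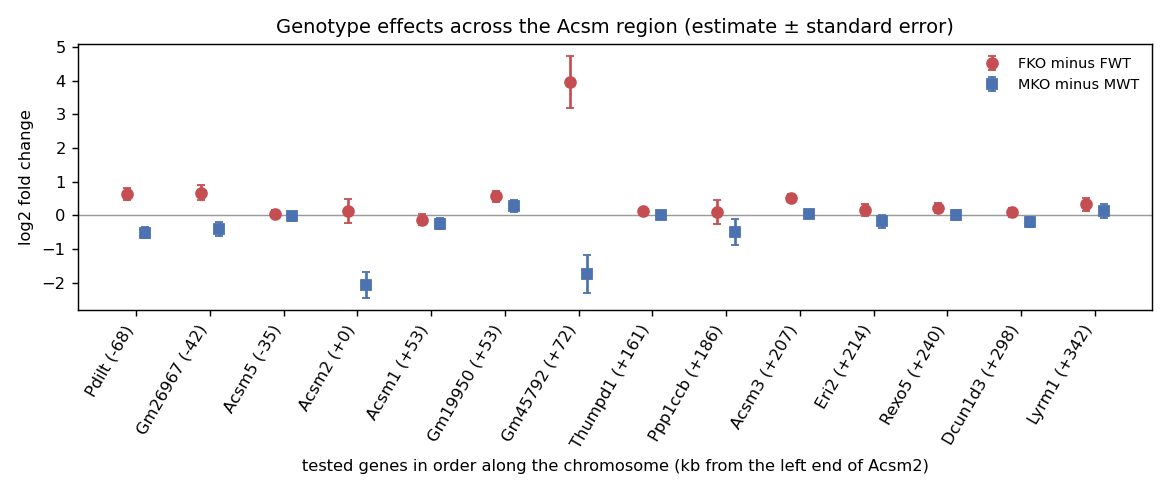
Log2 fold change with its standard error of each tested gene around the members, in order along chromosome 7, for FKO minus FWT (circles) and MKO minus MWT (squares); the number after each name is its distance in kb from the left end of Acsm2. Gm45792 was at 3.97 in females and -1.74 in males, and Acsm2 was at 0.13 and -2.07.

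The other genes of acyl-CoA metabolism were taken as lists that include no member. Among 18 other acyl-CoA synthetases tested, 1 was higher and 1 lower in FWT than in MWT, beside 2.67% and 2.20% of all genes. In FKO against FWT 1 was lower, beside 2.57% of all genes. In MKO against MWT 3 were higher, beside 0.833% of all genes. Acss3, a mitochondrial ligase of short-chain acids such as propionate, had means of 105 ± 23.2 CPM in FWT, 11.8 ± 3.62 in MWT, 52.2 ± 13.9 in FKO and 53.1 ± 13.7 in MKO (SD). It was 8.95-fold higher in FWT than in MWT (log2 fold change 3.16), fell by 1.01 on the log2 scale in FKO and rose by 2.18 in MKO. Acsl6, a long-chain ligase with few counts, was lower in FWT (0.0422 CPM) than in MWT (0.374 CPM). The long-chain ligases Acsl3 and Acsl5 were higher in MKO than in MWT by 0.72 and 0.77. The list had a median log2 fold change of 0.24 in MKO against MWT and of -0.19 in FKO against FWT, where the median of all genes was -0.00 in both.

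Among 6 genes of amino acid conjugation of acyl-CoA tested, 2 were higher and 1 lower in FWT than in MWT, beside 2.67% and 2.20% of all genes. Keg1, a glycine N-acyltransferase-like gene, had means of 84.1 ± 11.5 CPM in FWT, 293 ± 45.1 in MWT, 352 ± 96.6 in FKO and 267 ± 93.6 in MKO. Like Acsm3, it was lower in FWT than in MWT (log2 fold change -1.80, adjusted p = 0.000414, edgeR) and higher in FKO than in FWT (2.07, adjusted p = 9.15e-05). Glyat, the enzyme that joins benzoyl-CoA to glycine, rose by 0.75 in FKO against FWT (adjusted p = 0.0225, edgeR), from 176 ± 11.97 to 296 ± 82.3 CPM. Its difference between FWT and MWT was -0.58 (adjusted p = 0.113). Acnat2 and Acnat1, acyltransferases of amino acid conjugation whose near copies may share reads, were higher in FWT than in MWT (4.0002 and 0.62) and fell in FKO against FWT by 2.33 and 0.63. None of the 6 passed in MKO against MWT, by edgeR or DESeq2, with 1 at an unadjusted p under 0.05, beside 1.42% of all genes that passed by edgeR.

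Of 12 acyl-CoA thioesterases tested, which split acyl-CoA and so act against the synthetases, 3 were higher in FWT than in MWT and 3 were higher in MKO than in MWT. The shares of all genes that were higher in these comparisons were 2.67% and 0.833%. In both comparisons these were Acot3, Acot4 and Acot2, with log2 fold changes of 6.13, 2.30 and 1.98 in FWT against MWT and of 3.56, 1.24 and 1.59 in MKO against MWT. These genes are close copies of each other, and their counts are uncertain where reads could be split between them. Acot11 was the single thioesterase lower in FKO than in FWT (-1.16), and Acot13 passed for the averaged genotype effect (0.39). The median log2 fold change of the list was 0.57 in FWT against MWT and 0.41 in MKO against MWT, beside 0.01 and -0.00 over all genes.

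Of 19 genes of mitochondrial oxidation of medium-chain acyl-CoA tested, few passed. Hadh, the medium- and short-chain hydroxyacyl-CoA dehydrogenase, was higher in FWT than in MWT (0.51) and fell by 0.43 in FKO against FWT, from 308 ± 20.9 to 229 ± 24.6 CPM. Acat1, which makes acetoacetyl-CoA for ketone bodies, passed for the averaged genotype effect (0.31). No gene of the list passed in MKO against MWT by edgeR or DESeq2, with 7 at an unadjusted p under 0.05, beside 1.42% of all genes that passed by edgeR. The median of the list there was 0.25.

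Over these lists and the 10 neighbouring genes together, 65 genes were tested by edgeR and 11 passed in FWT against MWT, which is 16.9% of them beside 4.87% of all genes. In FKO against FWT 9 passed (13.8% beside 5.71%), and in MKO against MWT 6 passed (9.23% beside 1.42%). The lists were chosen with results known, so nothing particular to them is read from these shares. In FKO against MKO 0 passed by edgeR, beside 0.272% of all genes. There 15 had an unadjusted p under 0.05 and 3 passed by DESeq2, for which no share of all genes was computed. The female genotype count fell to 5 without FWT 3, and the male genotype count to 2 without MWT 1, MWT 2 or MKO 1 and to 3 without MWT 3. The count between FKO and MKO was 1 without FKO 3 or FKO 5.

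Genes with the most similar pattern were sought among 11636 genes by the Pearson correlation of log2 CPM over the 15 mice, as a description. For Acsm2 these were Fcna (ficolin A, a lectin of innate immunity, r = 0.83), Pptc7 (a mitochondrial phosphatase, 0.83), Fbxo28 (0.80), Cybc1 (0.79) and Lifr (the receptor of leukemia inhibitory factor, 0.79). By Spearman rank correlation the values were lower, at 0.52 for Fcna, 0.72 for Pptc7, 0.65 for Fbxo28, 0.70 for Cybc1 and 0.67 for Lifr. Each had its lowest group mean in MKO, such as 34.97 CPM of Fcna in MKO against 45.4 in FKO, 47.5 in MWT and 52.9 in FWT. A search for likeness makes such a shared lowest group likely in advance, here and for Acsm3 below, so it is no separate result. For Acsm3 they were Glo1 (glyoxalase, 0.96), Chpt1 (an enzyme of phosphatidylcholine synthesis, 0.95) and Nop10 (0.93), each lowest in FWT, as with Glo1 at 256 CPM in FWT against 374 in MWT, 388 in FKO and 384 in MKO. For Acsm1 they were Plcg1 (0.95), Proz (0.93) and Vtn (0.93), and for Acsm5 Adam9 (0.96), Nsun4 (0.95) and H6pd (0.95).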

How the data were processed

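Livers of 15 mice were examined by RNA-seq of RNA depleted of ribosomal RNA, with paired-end reads from a NovaSeq6000 and a second run for low samples that are not named. The authors removed low-quality ends with Trimmomatic 0.36, mapped with STAR against GRCm38 and used HTSeq, for which the sources give different versions, to obtain raw counts for each gene, which are the values deposited. Whether counting used the strand, which gene models it used and how it treated reads that map to several places is not given in the sources used here.

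Members and gene lists were chosen with earlier results of these data known. A planned test of the averaged Acsm2 effect is not reported, since the choice used these values. Counts were filtered with filterByExpr, scaled by TMM and fitted in edgeR 4.0.16 (R 4.3.3) with a mean for each of the 4 groups, using the quasi-likelihood F test and Benjamini-Hochberg adjustment over 17655 genes, passing at an adjusted p under 0.05. CPM uses TMM, and log2 CPM a prior count of 2. DESeq2 1.42.0, other scalings and filters, and leaving out each mouse were alternatives. Gene positions were matched by Ensembl identifier to GENCODE M21 on GRCm38, and promoters are those of RefSeq. On simulated data with a log2 change of 2, edgeR recovered between 86.5% and 99% of changed genes in the 6 comparisons, each simulated on 17393 to 17447 genes. The tested members differed by at most 0.53, so this recovery does not tell how often changes of their size would pass. Genes named from a list were up to 3 per list and comparison, by size of change among those that passed. The lowest chi-square per gene between mice of a group was 24.7, far above the value near 1 that a repeated library would give. No column was left out. P values measure the spread between mice.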

Additional observations from a re-analysis of the deposited data

Results flagged for a closer look

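For 10 of the 65 genes tested over the lists and neighbouring genes, beside 1.94% of all genes, the effect of genotype was unequal in females and males by the edgeR interaction test, given as the log2 fold change of FKO against FWT minus that of MKO against MWT. It was 5.71 for Gm45792, 2.20 for Keg1 and 1.15 for Pdilt, beside 2.20 for Acsm2. The female and male parts were 3.97 and -1.74 for Gm45792, 2.07 and -0.13 for Keg1 and 0.64 and -0.51 for Pdilt. For Acsm2, which was not tested, they were 0.13 and -2.07. The interaction was -4.93 for Acot3, -3.19 for Acss3, -2.87 for Acnat2, -1.97 for Acot2, -1.90 for Acot4, -0.91 for Acsl3 and -0.75 for Hadh. These 10 are among 17 genes named because they had passed at least 1 comparison. The adjusted p lay between 4.41e-05 for Acss3 and 0.0272 for Acot2.

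A single mouse stood apart within its group for 2 genes. Acss3 was highest in MKO mouse 3, at 73.5 CPM, where its gap to the next mouse was 0.953 of the range of the group on the log2 scale. Acot2 was lowest in FKO mouse 1, at 1.71 CPM, with a gap of 0.782 of the range. Of the 42 groups examined in this way over 21 genes, chance alone flags about 1 in 20.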

How the results depend on the processing

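When 1 mouse was left out, Acsm3 ranged from -0.58 to -0.42 for FWT against MWT, from 0.48 to 0.58 for FKO against FWT and from 0.24 to 0.31 for the averaged genotype effect, which passed without FKO 3 (adjusted p = 0.0424). Values near 0 changed sign when 1 mouse was left out: Acsm1 FKO against MKO (-0.11 to 0.068), Acsm3 FKO against MKO (-0.063 to 0.072), Acsm3 MKO against MWT (-0.056 to 0.10), Acsm5 FKO against FWT (-0.031 to 0.089) and the averaged Acsm5 effect (-0.032 to 0.028). Acsm3 FWT against MWT lost its call with total counts in place of TMM (-0.43, adjusted p = 0.0516), and the averaged effect of Acsm3 passed by DESeq2 (0.28, adjusted p = 0.0229). Acsm1 FKO against MKO became 0.031 with total counts, Acsm3 FKO against MKO became -0.0025 with DESeq2 size factors and -0.0028 by DESeq2, and the averaged Acsm5 effect became 0.00038 with no filter. Per kb of the longest coding transcript, Acsm2, Acsm3 and Acsm5 were at 1.29, 39.9 and 64.9 CPM.

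The labels number mice within each group, and with the replicate number as a block on mice 1 to 3, Acsm3 FWT against MWT was -0.48 (adjusted p = 0.0960), Acsm5 FKO against FWT -0.160, and the interactions of Acsm1 and Acsm5 -0.043 and -0.108. Without the block the same mice gave -0.48 (adjusted p = 0.0539), -0.158, -0.034 and -0.107, an alternative chosen after seeing the data. Of 19 pairs of same-numbered mice, 1 had deviations that correlated above 0.1 (range -0.195 to 0.140). Such correlations cannot show whether same-numbered mice shared a litter or a sequencing run.

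The genes of the lists and neighbourhood that passed were 17 (DESeq2) for FWT against MWT and 3 (DESeq2 or no filter) for FKO against MKO. With a log2 fold change of at least 1.5 they were 3 in females, 3 in males and 0 for the averaged effect, which had 6, 13 by DESeq2 and 12 with no filter. Without 1 mouse, run after seeing the data, they were 0 to 1 for FKO against MKO, 5 to 13 in females, 2 to 9 in males and 2 to 11 for the averaged effect, with 3 without FWT 3 or MWT 1, 2 without MWT 3 and 11 without FKO 1. Which mice had the second sequencing run was not given, so it could not be examined. The cause of these changes was not tested. The 13 to 340 counts of Acsm2 limit its precision more than that of the other members.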
